A study of Homo sapiens with 12 samples.

Results

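The 76 replication-dependent histone genes of the deposited table were examined in the ovarian cancer cell line ES-2 after knockdown of each member of the IGF2BP family of mRNA-binding proteins. Members were all table rows whose names consist of HIST, a cluster number and a histone class letter code, without those whose names end in PS and a digit. They make up 76 of 57865 features, with 6 H1, 17 H2A, 23 H2B, 15 H3 and 15 H4 genes. GENCODE release 29 annotates 70 of them as protein-coding and 6 as pseudogenes, of which 5 are named as H2B and 1 as H3.

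The siRNAs of the group siI1 targeted IGF2BP1, those of siI2 targeted IGF2BP2, those of siI3 targeted IGF2BP3, and siC received control siRNAs, with 3 libraries in each of the 4 groups. Total RNA was freed of ribosomal RNA rather than selected for poly(A), so that transcripts without a poly(A) tail were kept. The labels do not name separate cultures within a group, and each p-value therefore reflects only the spread over these 12 libraries, which may be technical. In bulk RNA, fewer cells in S phase and less histone RNA per cell in S phase cannot be told apart.

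Replication-dependent histone genes supply the histones that package newly made DNA. The core histones H2A, H2B, H3 and H4 form the nucleosome, and H1 binds the linker DNA between nucleosomes. The genes lie in clusters, are read mainly in S phase, and give mRNAs that end in a stem-loop in place of a poly(A) tail. The stem-loop is bound by SLBP, the protein on which processing, translation and the rapid decay of these mRNAs at the end of S phase depend.

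The stem-loop sets these mRNAs apart from other mRNAs, and its sequence is therefore shown for core histone genes whose levels are described further on. The 16-base pattern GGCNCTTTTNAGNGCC, searched on the sense strand of GENCODE release 29 transcripts, was found in 34 of the 76 members. It was present in 34 of the 44 members whose annotated transcript runs beyond the coding sequence and in 0 of the 32 members annotated with coding sequence alone, a difference that follows from where the annotation stops. Of 19853 other protein-coding genes, 5 held the pattern (0.0252%). In the following sites, capitals mark the 16 bases of the pattern, written 5′ to 3′ as DNA with 5 bases on each side, from transcripts annotated on GRCh38.
HIST1H2AG: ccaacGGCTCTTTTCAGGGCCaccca
HIST2H2AA3: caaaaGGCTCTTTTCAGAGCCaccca
HIST1H2BC: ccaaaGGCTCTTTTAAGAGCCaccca
HIST1H2BL: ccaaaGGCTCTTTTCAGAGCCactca
HIST2H3C: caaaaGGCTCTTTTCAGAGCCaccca
HIST1H4J: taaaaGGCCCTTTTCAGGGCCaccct
HIST2H4B: ccaaaGGCCCTTTTTAGGGCCgacca
HIST1H4E: tcaaaGGCCCTTTTCAGGGCCgccca
HIST4H4: caaaaGGCCCTTTTCAGGGCCcccaa

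The letters of the stem differed between classes. All 8 H4 sites found carried a stem that begins GGCCCTTTT, in 5 members as GGCCCTTTTCAGGGCC and in 3 as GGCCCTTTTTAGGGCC. The sites of H2A, H2B and H3 shown here begin GGCTCTTTT instead, and the form carried by HIST2H2AA3, HIST1H2BL and HIST2H3C was found in 6 H2A, 9 H2B and 3 H3 members. No transcript of an H1 member held the pattern, which says only that these letters are not in the annotated sequence, since H1 members such as HIST1H1A and HIST1H1D are annotated without the region downstream of the stop codon.

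Of the 76 members, 68 passed a filter on low values, namely 5 H1, 14 H2A, 22 H2B, 13 H3 and 14 H4 genes. The other 8 were at or near the limit of counting. HIST1H2AA, HIST1H2BA and HIST1H2AD are listed at 0 in all 12 libraries. For HIST1H2AA and HIST1H2BA this allows up to 0.32 to 0.73 FPM at 3 reads per library. FPM is the deposited unit, fragments scaled to the size of the library and divided by a further factor that differs between libraries. This factor ran from 0.82 in siC replicate 2 to 1.25 in siI2 replicate 3. HIST1H2AD shares 97.6% of its read-length stretches with AL031777.3, and how such reads were counted is not stated, so its 0 sets no limit. HIST1H1T, a linker histone of the testis, had 0.31 FPM in siI1 replicate 1 and is listed at 0 in the other 11 libraries. HIST3H3, HIST1H4G, HIST1H3J and HIST1H2AM had at most 0.21, 0.25, 1.06 and 1.49 FPM in any library.

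Libraries held 3274590 to 11110357 reads without spike-ins, and the members took 1.96% to 3.80% of them. The targeted genes were lower in their own knockdown, IGF2BP1 at 25.2%, IGF2BP2 at 16.8% and IGF2BP3 at 19.2% of its siC mean. IGF2BP3 also lay below all siC libraries in the other knockdowns. It had 14.9, 17.4 and 13.3 FPM in siI1 and 11.1, 18.2 and 15.5 FPM in siI2, against 21.7, 19.5 and 29.4 FPM in siC. IGF2BP1 in siI2 and IGF2BP2 in siI1 and siI3 lay above all siC libraries, and IGF2BP1 in siI3 overlapped siC. The epithelial keratins KRT8 and KRT18 had 36.5 to 162 and 103 to 371 FPM over the 12 libraries, while EPCAM, CDH1 and KRT19 had at most 6 reads in any library. The T cell marker CD3E had at most 1 read in any library. CDH5, a cadherin of endothelium, had 54.8 to 149 FPM, while VWF, another endothelial marker, had 0.232 to 3.15 FPM. Of the other markers listed for ES-2, PAX8 had at most 15 reads in any library. VIM and CDH2 had 157 to 998 and 34.6 to 72.1 FPM. The most abundant small RNAs varied between libraries: RN7SL took 15.4% to 25.1% of reads in siI1, 23.4% to 28.3% in siI2, 20.2% to 28.5% in siI3 and 11.3% to 15.6% in siC, and U1 took 1.17% to 14.2% in the 9 knockdown libraries against 9.55% to 22.3% in siC.

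Several genes share reads with near-identical copies, and their values are those of a pair. HIST1H4J and HIST1H4K, HIST2H4A and HIST2H4B, HIST2H3A and HIST2H3C, and HIST2H2AA3 and HIST2H2AA4 lay within 5% of each other in at least 11 of 12 libraries. The largest gap was in siI3 replicate 2, with 4214 FPM for HIST1H4J and 5248 FPM for HIST1H4K. Of the 68 measured members, 53 shared fewer than 50% of their read-length stretches with the transcripts of another gene.

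Counting each of these pairs once, the members summed to 22358, 17321 and 21243 FPM in siI1, to 27382, 20124 and 18064 FPM in siI2, to 28232, 31576 and 20080 FPM in siI3, and to 16301, 27186 and 14817 FPM in siC. Replicate 2 of siC stood well above the other 2 siC libraries and inside the range of siI3, and all groups overlapped in summed FPM. The means of the summed FPM were 20308 ± 2646 in siI1, 21857 ± 4895 in siI2, 26630 ± 5913 in siI3 and 19435 ± 6754 in siC (SD, n = 3 each). As a share of reads, without the further factor in FPM and with both genes of each pair counted, siI3 and siC did not overlap. Members took 3.51%, 3.80% and 2.76% of reads in siI3 and 2.15%, 2.69% and 1.96% in siC. In siI1 they took 2.55%, 2.08% and 2.56%, below siI3, and in siI2 2.81%, 2.44% and 2.70%, which overlapped siI3. Relative to their level, replicates 1 and 3 of siI2 lay closer together as a share of reads than in summed FPM.

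**Figure D1:**
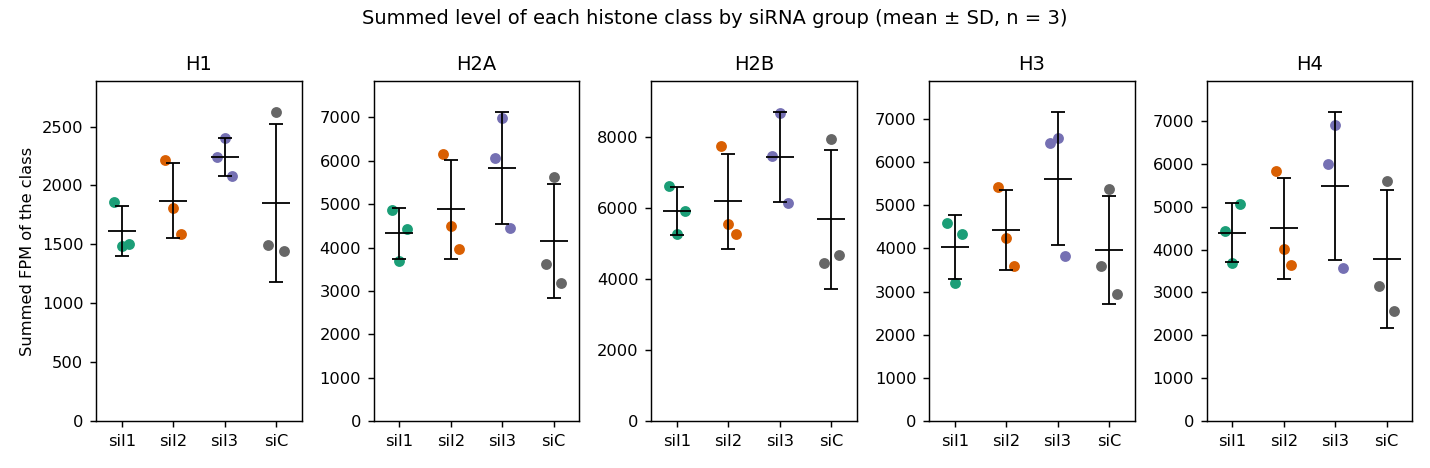
Summed FPM of the H1, H2A, H2B, H3 and H4 genes in each library, 1 point per library, with near-identical pairs counted once; the bar is the mean and the whiskers are 1 SD of 3 libraries. In each class siC replicate 2 lies above the other 2 siC libraries, and siI3 overlaps siC.

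In each class siC replicate 2 was the highest siC library. H2A summed to 5839 ± 1290 FPM in siI3 and 4146 ± 1311 FPM in siC, and H2B to 7443 ± 1273 FPM in siI3 and 5688 ± 1960 FPM in siC. H3 summed to 5619 ± 1548 FPM in siI3 against 3971 ± 1255 FPM in siC. H4 reached 5488 ± 1725 FPM in siI3 against 3779 ± 1608 FPM in siC, and H1 reached 2241 ± 164 FPM in siI3 against 1852 ± 669 FPM in siC.

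As a log2 difference from each gene's mean over all libraries, the 68 members moved together within a library. Their median was 0.07, -0.27 and -0.05 in siI1, 0.40, -0.06 and -0.23 in siI2, 0.35, 0.55 and -0.12 in siI3, and -0.32, 0.31 and -0.44 in siC. Replicates 2 and 3 of siC thus lay farther apart than the group medians against siC. All genes tested had medians of -0.12 to 0.07 in the same libraries.

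**Figure D2:**
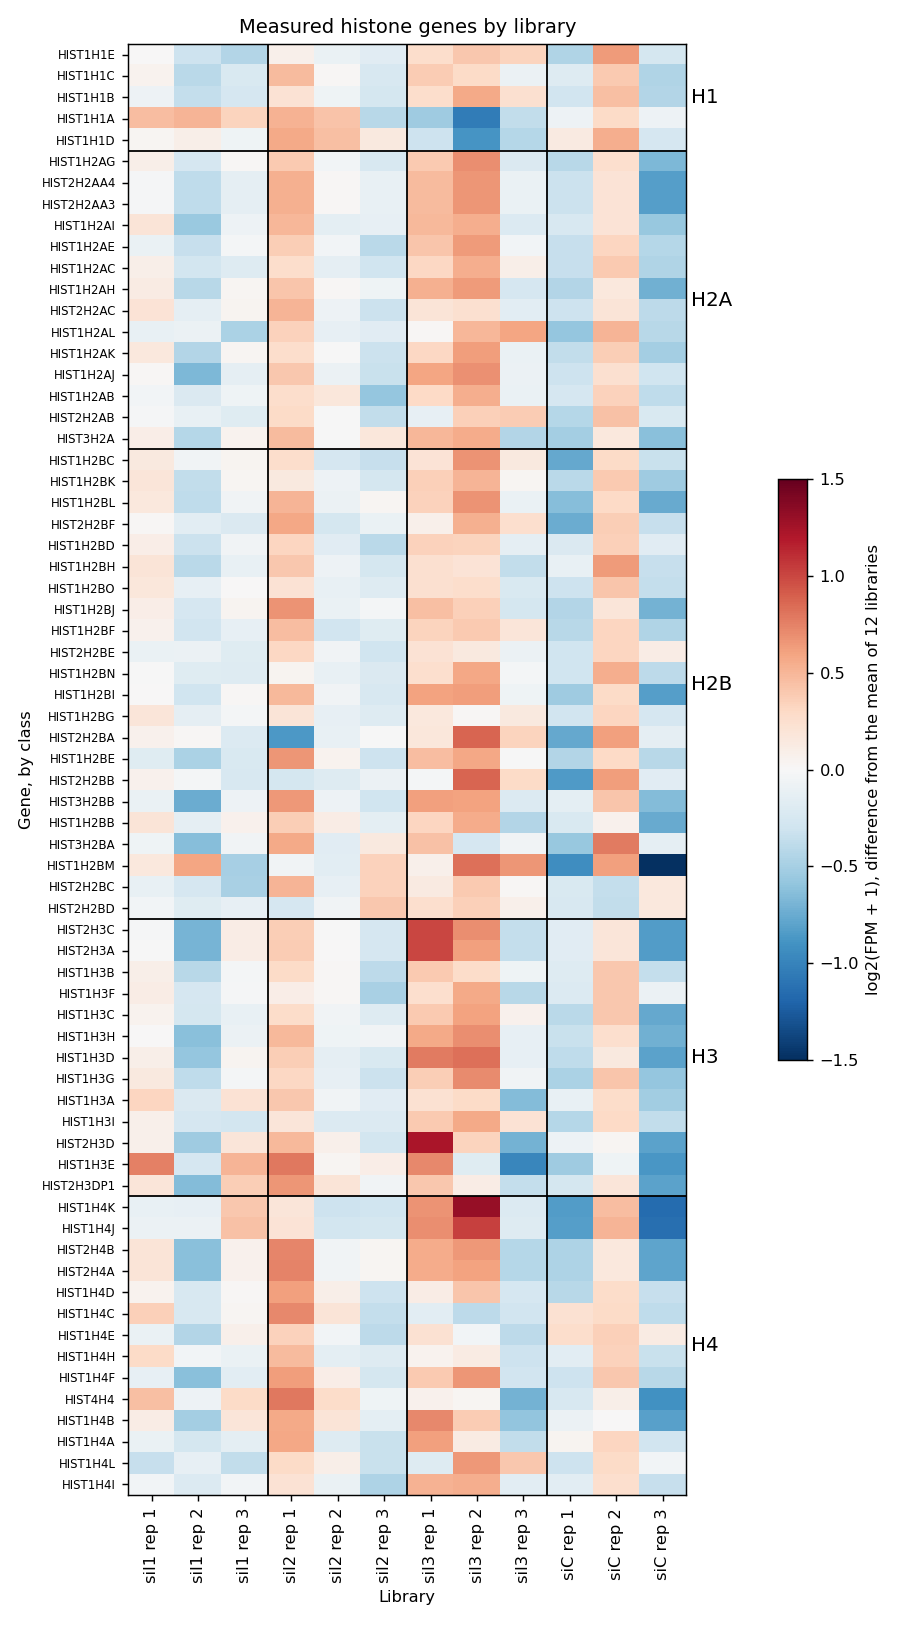
Level of each of the 68 measured histone genes in each of the 12 libraries, as log2(FPM + 1) minus the gene's mean over the 12 libraries; rows run by class and, within a class, from high to low mean FPM. Most rows are high in siI2 replicate 1, siI3 replicates 1 and 2 and siC replicate 2 and low in siC replicates 1 and 3, while HIST1H1A and HIST1H1D are low in all 3 siI3 libraries.

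No member passed the test against siC in any knockdown. The test was limma-trend, applied to log2(FPM + 1) in all 12 libraries, with p-values adjusted by Benjamini-Hochberg over 13782 genes and a threshold of 0.05, and fold changes are on the log2(FPM + 1) scale, which understates the change of low genes. Of all genes, 8.18% were called in siI1, 1.51% in siI2 and 10.6% in siI3, beside 0 of 68 members for each knockdown. At an unadjusted p below 0.05 there were 1, 2 and 16 members in siI1, siI2 and siI3, where 27.6%, 22.8% and 30.0% of all genes reached that level. With edgeR on recovered reads 0 members passed for each knockdown as well, where 10.1%, 1.34% and 9.94% of all genes were called. With DESeq2, 0 of 68 members passed for siI1 and for siI2, where 15.5% and 5.88% of genes were called, and 9 for siI3, where 16.7% were. By direction, limma called 3.77%, 0.573% and 2.30% of all genes higher and 4.42%, 0.936% and 8.29% lower for siI1, siI2 and siI3.

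The members' median log2 fold change against siC was 0.07 in siI1, 0.18 in siI2 and 0.46 in siI3, beside -0.05, -0.09 and -0.05 over all genes tested. The 3 comparisons share the siC libraries. Above 0 were 44 of 68 members in siI1, 57 in siI2 and 63 in siI3, where 46.8%, 42.9% and 47.4% of all genes were above 0. Class medians in siI3 were 0.28 for H1, 0.51 for H2A, 0.47 for H2B, 0.56 for H3 and 0.34 for H4.

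**Figure D3:**
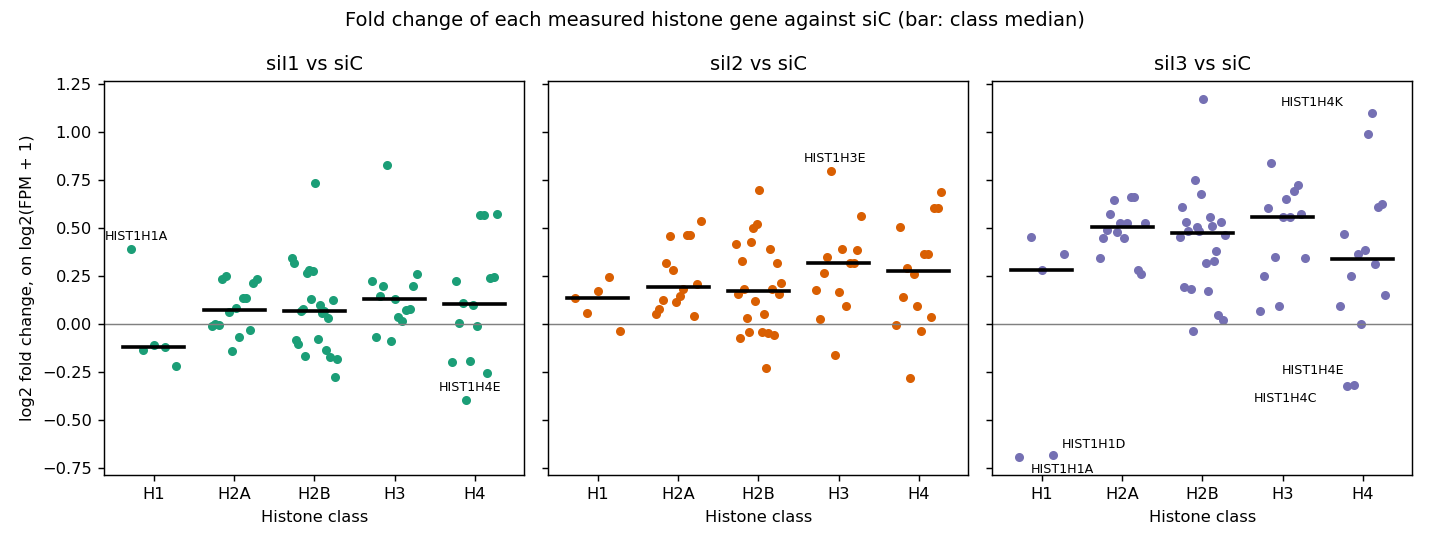
Log2 fold change of each measured histone gene against siC, by class, in siI1, siI2 and siI3; points are genes, thick bars are class medians, and the grey line marks 0. In siI3 the class medians lie between 0.28 and 0.56, and HIST1H1A and HIST1H1D lie at -0.69 and -0.68.

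These values rest on which siC libraries are compared. Without siC replicate 2, the count of members called in siI3 was 26 of 68, all higher in siI3, with 20.5% of all genes called, and the members' median was 0.71. Without siC replicate 2 the counts were 2 in siI1 and 2 in siI2, with 18.9% and 11.4% of all genes called. Without siI3 replicate 3, 21 members were called in siI3, 19 higher and 2 lower, with 19.9% of all genes called. Leaving out any other siI3 or siC library gave 0.

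Libraries also differed in how level depended on GC content. Over all genes, the slope per 10 points of transcript GC content was -0.46 and -0.43 on the log2 scale in siC replicates 1 and 3, 0.02 in siC replicate 2, and -0.09 to 0.21 in the 9 knockdown libraries. The siC libraries with low histone levels were thus those with a negative slope, and members of coding length alone have a median GC content of 60.3%, against 49.1% over all genes tested. After subtraction of a loess surface over GC content and length from each library, the members' median was -0.10 in siI1, 0.08 in siI2 and 0.31 in siI3, and members called numbered 0 for siI1 (6.45% of all genes), 0 for siI2 (1.34%) and 1 for siI3 (8.66%), HIST1H1D.

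**Figure D4:**
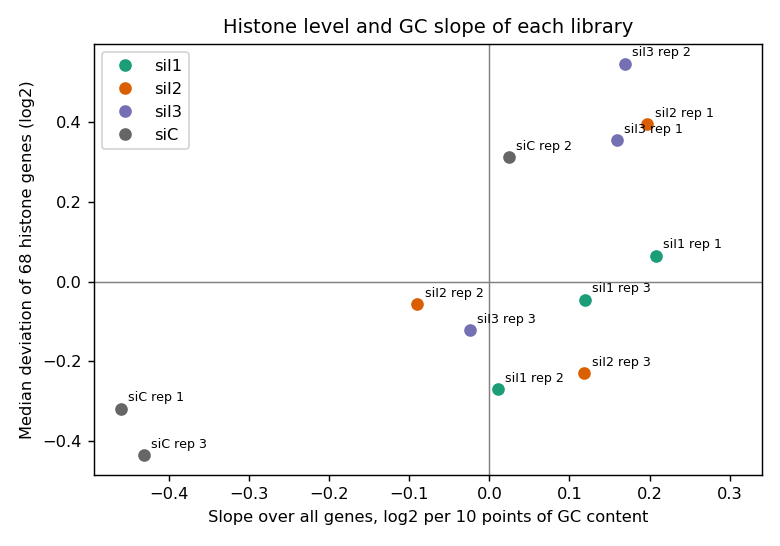
Median deviation of the 68 measured histone genes (log2 scale) in each library against that library's slope of log2 level per 10 points of GC content over all genes. Replicates 1 and 3 of siC lie at the lower left, and siC replicate 2 lies at 0.02 on the horizontal and 0.31 on the vertical axis.

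The correction used the longest annotated transcript, which for members with a stem-loop runs past the stem-loop and lowers their median GC content to 47.7%. Cutting these transcripts 5 bases after the stem-loop raised it to 58.8%. Where the RNA of these members ends in these cells was not tested. With the cut transcripts the members' median was -0.22 in siI1, -0.03 in siI2 and 0.18 in siI3, so its sign in siI1 and siI2 depended on the correction, and in siI3 it was above 0 in each setting that was run. The part of GC content in the difference between siI3 and siC was not tested beyond these fits.

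HIST1H4J and HIST1H4K, which encode the same H4 protein as most other H4 genes, had the most RNA per kilobase of any measured member. The length used was that of the annotated transcript, cut after the stem-loop where the pattern was found. HIST1H4J had 1949, 1942 and 2804 FPM in siI1, 2381, 1706 and 1720 FPM in siI2, 3368, 4214 and 1815 FPM in siI3, and 1171, 2959 and 946 FPM in siC. Its siI3 and siC libraries overlapped through siI3 replicate 3 and siC replicate 2. The log2 fold change in siI3 was 0.99 with a standard error of 0.39 (limma, adjusted p = 0.104), and it was 0.64 after the GC and length correction (limma, adjusted p = 0.175). HIST1H4K had 1972, 1953 and 2814 FPM in siI1, 2398, 1713 and 1723 FPM in siI2, 3385, 5248 and 1840 FPM in siI3, and 1186, 2935 and 955 FPM in siC, and with shared reads it is no second measurement.

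The H4 genes of the HIST2 cluster on chromosome 1 behaved as a pair too. HIST2H4B had 587, 333 and 537 FPM in siI1, 855, 496 and 523 FPM in siI2, 756, 807 and 382 FPM in siI3, and 373, 574 and 296 FPM in siC. The siI3 and siC libraries overlapped, and the log2 fold change in siI3 was 0.62 with a standard error of 0.33 (limma, adjusted p = 0.208).

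Within H4, HIST1H4C and HIST1H4E, both in the HIST1 cluster on chromosome 6, differed from HIST1H4J in having lower means in siI3 than in siC. HIST1H4C had 583, 385 and 465 FPM in siI1, 752, 519 and 355 FPM in siI2, 407, 345 and 373 FPM in siI3, and 535, 555 and 348 FPM in siC. The siI3 values overlapped siC replicate 3, and the log2 fold change was -0.32 with a standard error of 0.27 (limma, adjusted p = 0.420). HIST1H4E had 146, 115 and 165 FPM in siI1, 197, 151 and 118 FPM in siI2, 182, 151 and 119 FPM in siI3, and 187, 200 and 170 FPM in siC. Its 3 siI1 libraries all lay below the 3 siC libraries, with a log2 fold change of -0.40 (limma, adjusted p = 0.247), and it was the only member of 68 with that pattern in siI1, which 17.6% of all genes showed.

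HIST4H4, alone on chromosome 12, had 153, 106 and 135 FPM in siI1, 192, 135 and 106 FPM in siI2, 117, 113 and 67.7 FPM in siI3, and 94.2, 118 and 58.6 FPM in siC. Groups overlapped in each knockdown. The log2 fold change was 0.57 in siI1, 0.69 in siI2 and 0.15 in siI3 (limma, adjusted p = 0.199, 0.169 and 0.747). HIST1H4L, at 25.5 to 52.5 FPM over the 12 libraries, had log2 fold changes of -0.25, 0.04 and 0.31 in siI1, siI2 and siI3, none of which passed the test.

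Among H3 genes, HIST1H3B of the HIST1 cluster stood at 1730 FPM per kilobase, and HIST2H3C and HIST2H3A, a pair of the HIST2 cluster, at 1455 and 1444. The lengths used for the pair reach the stem-loop, while no stem-loop was found for HIST1H3B. These values therefore do not rank the genes over equal lengths. HIST2H3C had 685, 425 and 745 FPM in siI1, 894, 691 and 579 FPM in siI2, 1382, 1127 and 539 FPM in siI3, and 614, 782 and 386 FPM in siC. Replicates 1 and 2 of siI3 were above all other libraries and replicate 3 was within the siC range, and the log2 fold change in siI3 was 0.73 with a standard error of 0.34 (limma, adjusted p = 0.165). HIST1H3B had 742, 524 and 682 FPM in siI1, 853, 706 and 533 FPM in siI2, 913, 845 and 665 FPM in siI3, and 608, 921 and 543 FPM in siC, with a log2 fold change of 0.25 in siI3 (limma, adjusted p = 0.513).

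HIST1H3E was the member with the largest positive fold change in siI1 and in siI2. It had 34.6, 16.8 and 29.1 FPM in siI1, 35.6, 20.6 and 21.6 FPM in siI2, 33.8, 17.7 and 9.75 FPM in siI3, and 13.6, 19.2 and 10.6 FPM in siC. All 3 siI2 libraries lay above siC, the only member of 68 with that pattern in siI2, which 7.72% of all genes showed. The log2 fold change was 0.83 in siI1 and 0.80 in siI2 with a standard error of 0.38 (limma, adjusted p = 0.165 and 0.217). HIST1H3F had log2 fold changes of -0.09, -0.16 and 0.09 in siI1, siI2 and siI3, with 461.7 to 962 FPM over the 12 libraries.

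Among H2A genes, HIST1H2AG had 864, 679 and 823 FPM in siI1, 1060.2, 786 and 687 FPM in siI2, 1059, 1315 and 698 FPM in siI3, and 608, 964 and 505 FPM in siC. The siI3 and siC libraries overlapped, and the log2 fold change in siI3 was 0.57 with a standard error of 0.28 (limma, adjusted p = 0.182). HIST2H2AA3 had 608, 474 and 563 FPM in siI1, 894, 627 and 573 FPM in siI2, 860, 976 and 576 FPM in siI3, and 494, 710 and 349 FPM in siC, with a log2 fold change of 0.66 in siI3 (limma, adjusted p = 0.121). HIST2H2AA4 had the same log2 fold change of 0.66 and shares its reads. Log2 fold changes of all 14 measured H2A genes in siI3 were above 0.

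Among H2B genes, HIST1H2BC had 1291, 1121 and 1193 FPM in siI1, 1392, 980 and 912 FPM in siI2, 1340.3, 1851 and 1285 FPM in siI3, and 684, 1422 and 922 FPM in siC. Here siC replicate 2 exceeded siI3 replicates 1 and 3, and the log2 fold change in siI3 was 0.61 with a standard error of 0.27 (limma, adjusted p = 0.146). HIST1H2BK and HIST1H2BL had log2 fold changes of 0.48 and 0.67 in siI3 (limma, adjusted p = 0.214 and 0.127), with means of 978 and 655 FPM in siI3 against 722 and 424 FPM in siC.

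HIST1H2BM, with few reads, is given by its ranges. It had 2.39 to 6.24 FPM in siI1, 3.31 to 5.09 FPM in siI2, 4.07 to 7.50 FPM in siI3 and 0.54 to 6.36 FPM in siC, and 4 reads in its lowest library. Its log2 fold change of 1.17 in siI3 was the largest of all members, with a standard error of 0.46 (limma, adjusted p = 0.103). HIST3H2BA, annotated as a pseudogene in the HIST3 cluster of chromosome 1, had 2.40 to 8.09 FPM over the 12 libraries and a log2 fold change of -0.27 in siI1, 0.16 in siI2 and 0.02 in siI3. HIST2H2BA had 112 to 135 FPM in siI1, 70.7 to 129 FPM in siI2, 146 to 238 FPM in siI3 and 75.7 to 198 FPM in siC.

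The linker histone genes ran in different directions in siI3, although none of them passed the test against siC. HIST1H1A and HIST1H1D were lower in siI3 than in siC in all libraries, while the means of HIST1H1B, HIST1H1C and HIST1H1E were higher. HIST1H1A had 63.0, 65.2 and 57.8 FPM in siI1, 66.0, 61.6 and 33.9 FPM in siI2, 31.3, 21.5 and 35.1 FPM in siI3, and 43.1, 55.8 and 43.2 FPM in siC. The highest siI3 library was below the lowest siC library, and the lowest siI1 library was above the highest siC library. The log2 fold change against siC was -0.69 in siI3 with a standard error of 0.25 (limma, adjusted p = 0.0796) and 0.39 in siI1 (limma, adjusted p = 0.313), so neither passed the test. Of 68 members, HIST1H1A alone had all siI1 libraries above siC, a pattern that 15.2% of all genes showed.

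HIST1H1D had 30.1, 31.3 and 28.2 FPM in siI1, 44.1, 40.6 and 32.7 FPM in siI2, 23.6, 15.5 and 21.6 FPM in siI3, and 32.4, 43.4 and 24.6 FPM in siC. Each siI3 library lay below each library of the other groups. The log2 fold change in siI3 against siC was -0.68 with a standard error of 0.23 (limma, adjusted p = 0.0658). It passed the threshold after the GC and length correction, at -0.72 (limma, adjusted p = 0.0343), and in DESeq2, at -0.67 (adjusted p = 0.0420). HIST1H1A and HIST1H1D were the only members of 68 with all siI3 libraries below siC, where 20.0% of all genes showed that pattern, and 0 members had all siI3 libraries above siC, where 9.25% of all genes did.

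**Figure D5:**
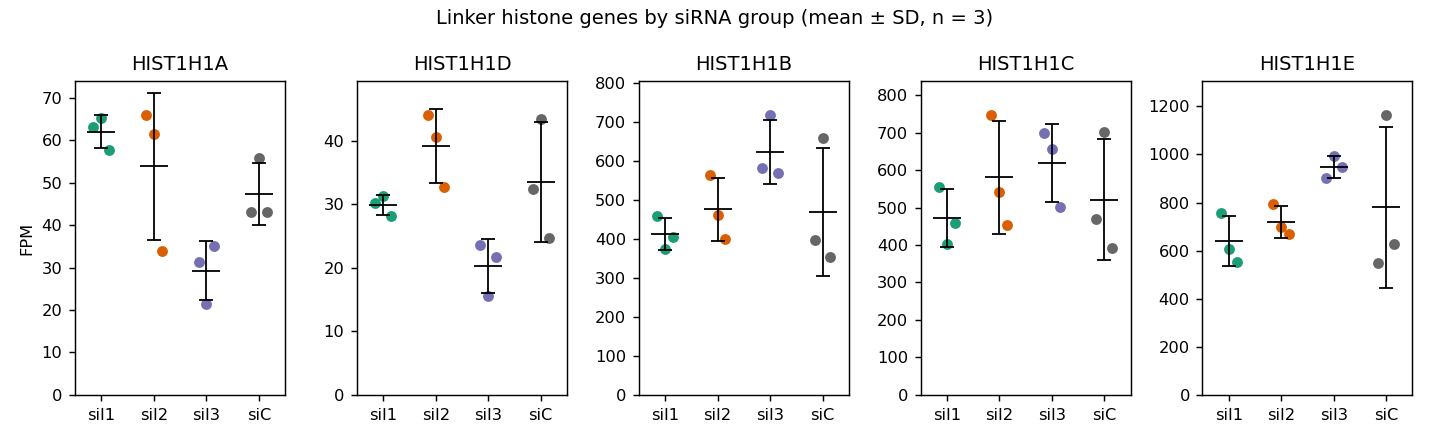
FPM of the 5 measured linker histone genes in each library, with the mean and 1 SD of 3 libraries. HIST1H1A and HIST1H1D are lowest in siI3, at 21.5 to 35.1 FPM and 15.5 to 23.6 FPM, while HIST1H1E in siI3 lies at 903 to 995 FPM.

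HIST1H1E had 756, 607 and 555 FPM in siI1, 795, 699 and 668 FPM in siI2, 903, 995 and 950 FPM in siI3, and 549.8, 1166 and 626 FPM in siC. The siI3 libraries were close together, inside the wide range of siC. Its log2 fold change in siI3 was 0.36 (limma, adjusted p = 0.343), and those of HIST1H1B and HIST1H1C were 0.45 and 0.28 (limma, adjusted p = 0.203 and 0.467). Per length, HIST1H1A and HIST1H1D were the lowest of the 5, at 74.3 and 46.1 FPM per kilobase, against 1024 for HIST1H1E, 854 for HIST1H1C and 727 for HIST1H1B.

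The knockdowns were also compared with each other, which does not use siC. Between siI1 and siI3, HIST1H1A was the 1 member called of 68, where limma called 7.05% of all genes (4.57% higher and 2.47% lower) and edgeR 7.28%, with 62.0 ± 3.8 FPM in siI1 and 29.3 ± 7.0 FPM in siI3 (SD, n = 3 each). Its log2 fold change was 1.08 with a standard error of 0.25 (limma, adjusted p = 0.0125), higher in siI1 in all libraries. Without siI1 replicate 1, siI1 replicate 2 or siI3 replicate 2, taken singly, this call did not pass, with 0 members called. Between siI2 and siI3, HIST1H1D was the 1 member called, where 2.00% of all genes were called (1.26% higher and 0.740% lower), with 39.1 ± 5.8 FPM in siI2 and 20.2 ± 4.2 FPM in siI3 (SD, n = 3 each). Its log2 fold change was 0.93 with a standard error of 0.23 (limma, adjusted p = 0.0461), and the call was lost without replicate 1 or 2 of either group. No member was called between siI1 and siI2 by limma, edgeR or DESeq2, with 0 also at an unadjusted p below 0.05, where limma called 2.40% of all genes (1.63% higher and 0.769% lower), edgeR 2.19%, and 14.3% reached that unadjusted level. After the GC and length correction 4.49% of all genes passed for siI1 against siI2 and 3.56% for siI2 against siI3.

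For most other members the direct comparisons with siI3 ran the opposite way to those of HIST1H1A and HIST1H1D. The members' median was -0.39 for siI1 against siI3, -0.21 for siI2 against siI3 and -0.13 for siI1 against siI2, and 51.3% of all genes were above 0 for siI1 against siI3. All siI1 libraries were below siI2 in 1 member, HIST1H1D, and in 8.16% of all genes. In 13 of 68 members all siI1 libraries lay below siI3, where 12.1% of all genes showed that pattern, among them HIST1H1B and HIST1H1E. HIST1H1B had 458, 375 and 404 FPM in siI1, against 581, 718 and 569 FPM in siI3, with a log2 fold change of -0.59 (limma, adjusted p = 0.155). After the GC and length correction 6 members were called between siI1 and siI3, where 10.8% of all genes were called. HIST1H1A was higher in siI1, and HIST1H1B, HIST1H1E, HIST1H2AJ, HIST1H3D and HIST1H3I were lower in siI1, at -0.62, -0.59, -0.67, -0.65 and -0.54.

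HIST1H1A and HIST1H1D had siI3 fold changes against siC opposite in sign to that of HIST1H1E, and the promoters of these genes are shown. The windows run from 250 bases before to 50 bases after the annotated start, from RefSeq on GRCh38.p14. Capitals mark matches on either strand to AAACACA, the H1 box found in linker histone promoters, to CCAAT and to TATAAA. The regions are chr6:26017738-26018037 (minus strand) for HIST1H1A, chr6:26234938-26235237 (minus strand) for HIST1H1D and chr6:26156079-26156378 (plus strand) for HIST1H1E.
HIST1H1A: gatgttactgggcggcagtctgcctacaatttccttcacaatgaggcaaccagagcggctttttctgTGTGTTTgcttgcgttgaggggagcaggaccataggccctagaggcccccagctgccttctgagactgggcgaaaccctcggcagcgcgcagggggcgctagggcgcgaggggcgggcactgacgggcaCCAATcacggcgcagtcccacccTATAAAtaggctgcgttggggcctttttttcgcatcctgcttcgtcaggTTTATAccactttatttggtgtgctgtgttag
HIST1H1D: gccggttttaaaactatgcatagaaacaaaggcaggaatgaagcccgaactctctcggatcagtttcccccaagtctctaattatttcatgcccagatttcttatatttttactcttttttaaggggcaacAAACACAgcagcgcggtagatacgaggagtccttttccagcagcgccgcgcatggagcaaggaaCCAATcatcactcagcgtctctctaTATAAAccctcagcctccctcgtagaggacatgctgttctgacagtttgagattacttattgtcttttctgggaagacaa
HIST1H1E: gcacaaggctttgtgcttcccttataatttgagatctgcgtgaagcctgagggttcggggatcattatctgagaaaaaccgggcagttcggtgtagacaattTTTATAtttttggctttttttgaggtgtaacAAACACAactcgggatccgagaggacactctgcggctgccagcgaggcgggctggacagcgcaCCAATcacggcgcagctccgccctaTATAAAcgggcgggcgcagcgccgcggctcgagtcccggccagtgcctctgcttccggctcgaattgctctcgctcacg

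All 3 windows held each of the 3 motifs, but the H1 box match of HIST1H1A differed in strand and place. It read TGTGTTT, on the opposite strand, and lay farther from the start than the matches in HIST1H1D and HIST1H1E. The window of HIST1H1C, which is not shown, held both TGTGTTT and AAACACA. Any link between these motifs and the levels was not tested. The counts that follow take either strand and any place in the window. Over classes, the H1 box was in 6 of 6 H1 promoters, 1 of 16 H2A and 2 of 12 H3 promoters, and in 5.74% of 27240 other promoters of the same length. The octamer ATTTGCAT was in 11 of 16 H2A and 14 of 18 H2B promoters, in 1 of 12 H3 promoters and in 0 of 6 H1 and 0 of 13 H4 promoters, against 1.71% of the others. CCAAT was in all H1, H2A, H2B and H3 promoters matched but in 3 of 13 H4 promoters, against 35.6% of the others. TATAAA was in 66.2% of member promoters and in 11.8% of the others. Of the 76 members, 65 had a promoter in the table, and a match is a description of letters, not of binding.

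Of 23 genes for histone mRNA 3′ end processing and decay, 21 were measured. In siI1 0 were higher and 2 lower, in siI2 none passed by limma, and in siI3 0 were higher and 2 lower, where 8.18%, 1.51% and 10.6% of all genes were called. CPSF2, a subunit of the complex that cuts histone pre-mRNAs, had 11.8, 11.7 and 10.8 FPM in siI1, 15.9, 12.6 and 16.8 FPM in siI3, and 37.9, 20.1 and 29.2 FPM in siC. It was lower in all siI1 and siI3 libraries, by -1.23 in siI1 (limma, adjusted p = 0.00558) and -0.87 in siI3 (limma, adjusted p = 0.0328). The siI1 call was kept in all 20 alternatives, and the siI3 call in 8 of 20, being lost after the GC and length correction. FIP1L1, a polyadenylation factor, was lower in siI3 at -1.21 (limma, adjusted p = 0.0192), kept in 15 of 20 alternatives. ZCCHC6, which adds uridines to RNA ends, was lower in siI1 at -1.22 (limma, adjusted p = 0.0474), a call lost after the GC and length correction. Its log2 fold changes in siI2 and siI3 were close to that, at -1.21 and -1.14, but did not pass (limma, adjusted p = 0.0876 and 0.0525).

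SLBP itself had 107, 134 and 97.9 FPM in siI1, 110.3, 125 and 64.0 FPM in siI2, 93.0, 114 and 103 FPM in siI3, and 192, 123 and 138 FPM in siC. The siI3 libraries all lay below siC, while siI1 and siI2 overlapped it. The log2 fold changes of -0.40, -0.63 and -0.53 in siI1, siI2 and siI3 did not pass the test (limma, adjusted p = 0.284, 0.150 and 0.156).

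Of 15 genes for histone gene transcription, 14 were measured, and CCNE1 in siI1 and NPAT in siI3 passed the test, both lower in the knockdown, where 8.18% of all genes were called in siI1 and 10.6% in siI3. NPAT, the coactivator of histone genes that cyclin E and CDK2 phosphorylate, had 1.55, 2.40 and 3.25 FPM in siI1, 0.64, 3.86 and 0.73 FPM in siI2, 1.54, 2.67 and 2.13 FPM in siI3, and 9.39, 3.77 and 9.20 FPM in siC. The siI3 fold change of -1.37 (limma, adjusted p = 0.0482) kept its call in 4 of 20 alternatives. In siI1 and siI2 the NPAT fold changes were -1.26 and -1.73 and did not pass (limma, adjusted p = 0.0709 and 0.0503). Its lowest siI2 values, 0.64 and 0.73 FPM, are 3 reads each. CCNE1, cyclin E, had 6.62 ± 1.39 FPM in siI1 and 14.2 ± 2.1 FPM in siC (SD, n = 3 each), and passed the test (limma, adjusted p = 0.0303), with the call kept in 13 of 20 alternatives.

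Of 16 histone chaperone genes, 14 were measured and none passed the test in any knockdown by limma, with 5, 5 and 3 at an unadjusted p below 0.05 in siI1, siI2 and siI3, a level that 27.6%, 22.8% and 30.0% of all genes reached. Of 12 replication-independent histone variant genes, 11 were measured. H2AFV, a variant of the H2A.Z kind, had 8.23, 9.59 and 9.57 FPM in siI1, 16.8, 12.3 and 12.8 FPM in siI3, and 31.2, 18.6 and 24.6 FPM in siC. It was lower by -1.32 in siI1 (limma, adjusted p = 0.00311), a call kept in all 20 alternatives, and by -0.77 in siI3 (limma, adjusted p = 0.0477), kept in 5 of 20. The linker variant H1F0 had 9.12 ± 2.06 FPM in siI1 and 16.8 ± 2.3 FPM in siI3 (SD, n = 3 each), and between these knockdowns its log2 fold change was -0.83 (limma, adjusted p = 0.0327), kept in 13 of 19 alternatives.

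All 40 S phase DNA replication genes were measured. In siI1 1 was higher and 0 lower, in siI2 0 passed the test, with 10 at an unadjusted p below 0.05, and in siI3 0 were higher and 6 lower. Over all genes, 3.77% were called higher in siI1, 22.8% reached the unadjusted level in siI2, and 8.29% were called lower in siI3. MCM5, a subunit of the replicative helicase, had 249 ± 22 FPM in siI1 and 143 ± 34 FPM in siC (limma, adjusted p = 0.0397), a call lost after the GC and length correction. Those lower in siI3 were CDC6, GINS4, POLA2, RRM1, RFC1 and PRIM2, at -1.04, -0.72, -0.94, -1.07, -1.19 and -1.62. CDC6, which loads the helicase, had 27.2, 17.9 and 39.7 FPM in siI3, against 59.6, 54.4 and 55.1 FPM in siC, with no overlap. Between siI1 and siI3, RPA1, a subunit of the protein that coats single-stranded DNA, had 22.7 to 30.5 FPM in siI1, against 13.5 to 16.1 FPM in siI3, a log2 fold change of 0.73 (limma, adjusted p = 0.0415). The siI3 calls against siC of CPSF2, FIP1L1, NPAT, H2AFV, CDC6, GINS4, POLA2 and RRM1 were each lost without siI3 replicate 1 or 2 or siC replicate 1 or 3, and those of NPAT and H2AFV also without siI3 replicate 3. The siI1 calls of CCNE1 and MCM5 were lost without any of the siI1 libraries or siC replicate 1 or 3, and that of ZCCHC6 without siI1 replicate 1 or 3 or siC replicate 1 or 3. Between siI1 and siI3, H1F0 lost its call without siI1 replicate 2 or 3 or siI3 replicate 1 or 2, and RPA1 without any library except siI3 replicate 3.

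The S phase list's median log2 fold change in siI3 was -0.04, beside -0.05 over all genes and 0.46 for the histone members. All siI3 libraries lay below siC in 14 of the 40 S phase genes and above siC in 0, where 20.0% and 9.25% of all genes showed these patterns.

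In the authors' deposited table, the lowest FDR among the members was 0.734 for siI1, 1.0 for siI2 and 0.362 for siI3 against control, the last for HIST1H1D.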

How the data were processed

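Total RNA of ES-2 cells was sequenced as paired reads of 101 bases. The submitters' processing notes name cutadapt 1.6, TopHat2 2.0.13, featureCounts 1.4.6, edgeR 3.12 and the build hg19, without roles. Strand settings, the annotation and the counting of reads with several positions are not stated in the labels.

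Per the file headers, the deposited table holds FPM per library, a signal scaled by the authors, with their log2 fold changes and FDR, an adjusted p-value, per knockdown. All values (100%) were whole multiples of 1 read within a tolerance of 0.01, so reads were recovered. The 3 libraries of each group differed by 7.82 to 84.3 times counting noise (chi-square per degree of freedom). The main test was limma 3.58.1 with trend on log2(FPM + 1) in R 4.3.3, all 12 libraries, after filterByExpr (minimum count 10) on the reads. edgeR 4.0.16 and DESeq2 1.42.0 on recovered reads were alternatives; edgeR called 1388, 185 and 1370 genes against siC in siI1, siI2 and siI3. Other alternatives were scalings, pseudocounts of 0.25 and 4, no filter, a replicate block, 6 libraries only, each library left out, and a loess (span 0.5) correction for GC content and length (13571 genes).

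The members and gene lists were chosen with earlier results of these data known. Named members were the 3 highest per class, those called, and the 3 largest and smallest fold changes per knockdown; members named only for not passing the filter, and HIST1H2AJ, HIST1H3D and HIST1H3I, were chosen after their values were seen. Named from the other lists were called genes, at most 4 per list, with RFC1 and PRIM2 added to complete a count. Transcript sequences came from GENCODE 29, 40 members matched by identifier and 36 by symbol, in place of a genome of the files' build. Intervals and floors cover counting error only.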

Additional observations from a re-analysis of the deposited data

Results flagged for a closer look

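HIST1H1A differed between knockdowns in a direct test, with a log2 fold change of 1.08 for siI1 against siI3 (limma, adjusted p = 0.0125, higher in siI1 in all 3 libraries). HIST1H1D differed by 0.93 for siI2 against siI3 (limma, adjusted p = 0.0461, higher in siI2 in all 3 libraries). The markers, depth and GC slope given with the results stand beside both, and their part was not tested.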

How the results depend on the processing

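The count of members called in siI3 against siC was 0; it was 9 with DESeq2 (16.7% of all genes called), 1 with DESeq2's size factors (9.85%), 5 without a scaling factor (4.35%), and 1 with either form of the GC and length correction (8.66%). Leaving out single libraries gave 0 to 2 in siI1, 0 to 2 in siI2 and 0 to 26 in siI3 against siC, the highest values without siC replicate 2. Without siC replicate 2 and with the correction the counts were 2, 0 and 15 in siI1, siI2 and siI3, where 6.94%, 1.36% and 8.28% of all genes were called. Between siI1 and siI3 the count of 1 became 8 without a scaling factor (6.33% of all genes), 6 with the correction (10.8%), 8 with the correction on transcripts cut at the stem-loop (10.9%), and 0 to 4 without single libraries. Between siI2 and siI3 it became 2 with DESeq2 (4.38%), 0 without the filter, 0 in the 6 libraries compared and 0 to 2 without single libraries. The cause was not tested. No called value reversed.

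Same-numbered libraries correlated at -0.45 to 0.45 in their deviations, above 0.1 in 7 of 18 pairs, and 3 of 12 libraries correlated best with their own number, so the numbers were not taken as pairs. With the replicate block, 0 members were called between siI2 and siI3, and the block alone moved no other count of members called. Added to the GC and length correction, the block gave 8 members between siI1 and siI3, against 6 without it, and 0 in siI3 against siC, against 1 without it. The difference of HIST1H1D in siI3 vs siC was then -0.72 with an adjusted p of 0.0506 (limma). In the 53 members sharing fewer than 50% of their read-length stretches with another gene, the siI1 median was 0.03. The correction on cut transcripts, that without siC replicate 2, and the split by shared reads were chosen after seeing the data. At 3 libraries per group, differences as large as 0.46 between siI3 and siC lay within the spread of siC.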
